A study of Mus musculus with 7 samples.

Results

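The cells described here are pyramidal-type neurons of mouse hippocampal cultures, picked from single-cell RNA libraries by their transcripts. A cell was a member when it held at least 1 unique molecular identifier (UMI, 1 counted RNA molecule) of Neurod6, at least 3 of Neurod2, Neurod6 and Bhlhe22 together, 0 of Prox1 and of Eomes, at most 1 of Gad1 and Gad2 together, and at most 1 of Trp73, Lhx1 and Lhx5 together. Of 28846 barcodes in the files, 26709 passed with 500 or more genes detected and no more than 10% of UMIs from mitochondria, and 2394 of these (8.96%) were members. The hippocampi came from newborn mice (P0, the day of birth) and were dissociated with trypsin, plated on glass coated with poly-D-lysine, and kept in MEM with B-27 and fetal bovine serum. Libraries were made at 1, 3, 5 and 7 days in vitro (DIV), with 1 library at DIV1 and 2 at each later day. No genotype, strain, sex or treatment is given in the labels, the days are the only difference between the groups, and the series concerns the formation of synapses. The design text speaks of sorted cells without naming a gate. Whether the 2 libraries of a day came from separate cultures is also not said, so the p-values below speak only of how far these libraries scatter, and that scatter may be technical.

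Pyramidal neurons are the glutamatergic projection neurons of the hippocampal fields CA1 to CA3. Neurod2 and Neurod6 are basic helix-loop-helix transcription factors of postmitotic glutamatergic neurons of the forebrain, and Prox1 is the homeobox factor of dentate granule neurons, the other large glutamatergic class of the hippocampus. Neurons plated at birth first extend neurites led by growth cones and later assemble presynaptic release sites and postsynaptic densities, and their response to GABA shifts as the potassium-chloride cotransporter Slc12a5 comes to outweigh the importer Slc12a2.

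The genes the rule did not use fitted the name of a neuron, while markers of glutamatergic neurons were low at DIV1. Stmn2, a microtubule regulator of growing neurites, stood at 2422 to 4316 CPM (counts scaled to a common total of 1e6) in the member sums of the 7 libraries and was seen in 97.8% to 100% of member cells. Cck, a neuropeptide gene of many hippocampal pyramidal neurons, stood at 329 to 886 CPM. In the DIV1 library the vesicular glutamate transporters Slc17a7 and Slc17a6 stood at 12.5 and 44.9 CPM in members, and the transcription factor Tbr1 at 24.9. In the other kept cells of that library these genes stood at 3.93, 31.9 and 19.1 CPM. Slc17a7 was higher in later libraries, as given below. The GABA vesicle transporter Slc32a1 lay between 0 and 0.407 CPM, but the rule had already limited Gad1 and Gad2, so a low value says little. C1ql2, a dentate granule marker, lay between 0 and 2.85 CPM. At DIV1 it was low in Prox1-positive neurons (defined below) as well, at 1.28 CPM. Other cell types left traces. Gfap, the astrocyte filament, lay at 26.8 CPM in the DIV1 library, at 53.8 to 267 at DIV3 and DIV5, and at 217 and 542 at DIV7, and Slc1a3, the astrocyte glutamate transporter, lay between 60.4 and 133 CPM. The microglial adaptor Tyrobp lay between 1.14 and 31.3 CPM, and Tmem212, a gene of ciliated cells, was at 0 in 6 of the 7 libraries.

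Members lay both near and far from the limits of the rule. There were 86 members at exactly 3 core UMIs and 103 cells just outside at 2, and 208 members with 1 Neurod6 UMI against 181 cells with 0 that met the rest of the rule. A further 279 cells failed only through a single Prox1 UMI. The median member held 4 Neurod6 UMIs at DIV1 and 7 to 11 in the later libraries. Those are the values that chose the cells, and they are given as a description.

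Depth differed between the days and between the cells compared. The libraries held 36226566 to 114119537 UMIs, and the member sums 7598939 at DIV1, 4779546 to 7256440 at DIV3 and DIV5, 2629814 in DIV7 replicate 1 and 1023923 in DIV7 replicate 2. The median member held 6043 UMIs at DIV1 and 13716 to 21723 later, whereas the median Prox1-positive neuron (Prox1 at least 1 UMI, at least 3 of Neurod1, Neurod2, Neurod6 and Bhlhe22 together, and the same exclusions) held 5716 to 8306. Members with 2 or more UMIs over 14 markers of other cell types made up 2.87% at DIV1, then 31.5% and 17.4% (DIV3), 23.0% and 25.2% (DIV5) and 29.3% and 57.8% (DIV7); in the other kept cells the share was 24.6% to 95.2%. The mitochondrial share of the median member ran from 3.50% at DIV1 to 6.99% in DIV7 replicate 1. Any 2 libraries shared 12 to 37 barcodes, and 0 or 1 of those were members in both. The part of these differences in the results below was not tested, except where a result is given without the cells concerned.

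Fewer pyramidal-type cells were found among the cells of later libraries. They made up 22.9% of kept cells at DIV1 (940 of 4096, exact 95% binomial interval 21.7 to 24.3). At DIV3 they made up 7.35% (378 cells, 6.65 to 8.10) and 10.5% (298 cells, 9.40 to 11.7). At DIV5 they made up 7.49% (322 cells, 6.72 to 8.32) and 7.20% (278 cells, 6.40 to 8.06). The DIV7 libraries held the fewest, 4.50% (133 cells, 3.78 to 5.31) and 1.28% (45 cells, 0.936 to 1.71). The intervals cover counting error only, and the DIV7 libraries lay below all others while those of DIV3 and DIV5 overlapped. Across the 7 libraries the share fell with day (Pearson r = -0.880, exact permutation p = 0.00317; Spearman rho = -0.899, exact permutation p = 0.0127; 2 measures, adjusted p = 0.00635 and 0.0127, two-sided). Leaving out the pair of libraries most distant from the middle day (ties taken in turn) gave r between -0.939 and -0.791. When cells with markers of other types were taken out of members and non-members alike, the share was 10.2% to 29.7% and r was -0.549 (exact permutation p = 0.203), which left 186 to 3292 cells per library. A share depends on how many other cells there are: there were 1.76 members for each Prox1-positive neuron at DIV1, then 0.649 and 1.45 (DIV3), 1.46 and 1.27 (DIV5) and 0.899 and 1.18 (DIV7), with no order by day.

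**Figure D1:**
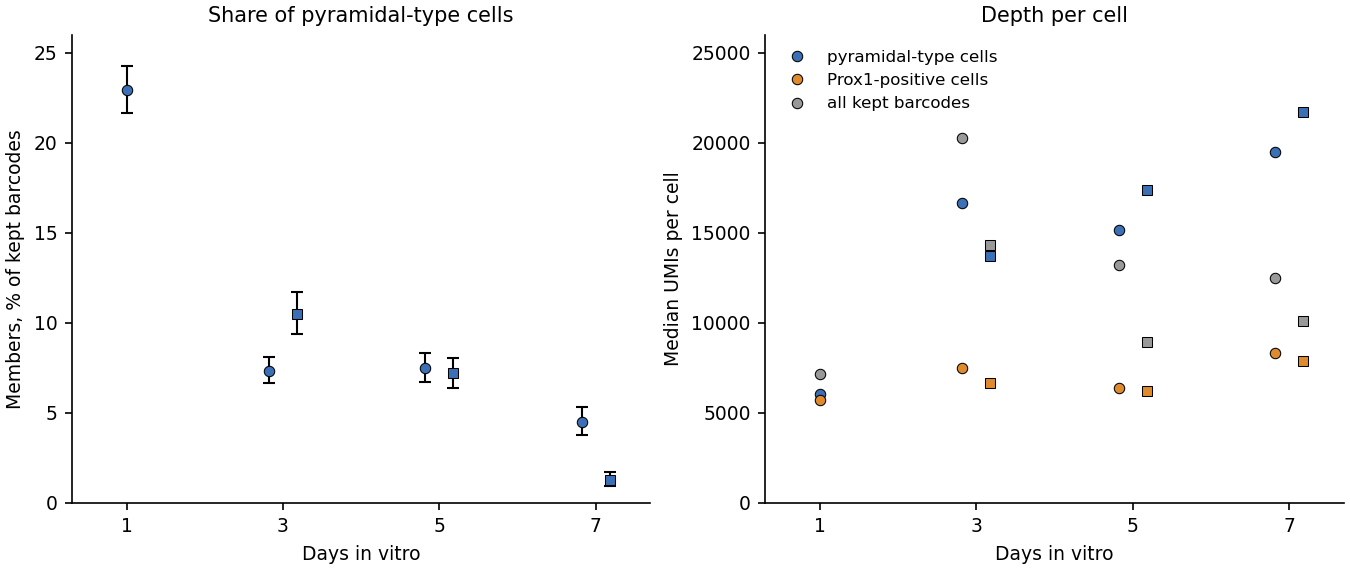
Left, pyramidal-type cells as a percentage of kept cells in each library against days in vitro, with exact 95% binomial intervals; right, median UMIs per cell for pyramidal-type cells, Prox1-positive neurons and all kept barcodes; circles are replicate 1 and the DIV1 library, squares are replicate 2. The DIV1 library stands at 22.9% and the DIV7 libraries at 4.50% and 1.28%, while the median pyramidal-type cell goes from 6043 UMIs at DIV1 to 21723 in DIV7 replicate 2.

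Between DIV3 and DIV7, 28 of 55 presynaptic and 26 of 42 postsynaptic genes rose in the pyramidal-type cells, and 5 of 21 genes of immature neurons and 7 of 28 genes of the cell cycle fell. These named sets of genes were chosen with earlier results of these data known. Counts were summed over the members of each library and fitted in edgeR by quasi-likelihood, and p-values were adjusted by Benjamini and Hochberg's method over 12830 genes. At a threshold of 0.05, 1554 (12.1%) were called, of which 887 (6.91% of all) had risen by DIV7 and 667 (5.20%) had fallen, and the median change over all genes was -0.04 on the log2 scale. Both libraries of one day lay outside those of the other for 58.4% of all genes, so a lack of overlap alone says little at 2 libraries a day. The size of the list depended on single libraries: 667 genes passed without DIV3 replicate 1, 2853 without DIV3 replicate 2, 103 without DIV7 replicate 1 and 288 without DIV7 replicate 2.

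Genes of the excitatory synapse were among the rises. Nrgn encodes neurogranin, a postsynaptic calmodulin-binding protein, and stood at 60.6 CPM at DIV1, then 156 and 111 (DIV3), 811 and 918 (DIV5) and 1341 and 1243 (DIV7). Every DIV5 and DIV7 library lay above every DIV1 and DIV3 library, and the DIV3 to DIV7 rise was 3.27 ± 0.23 (log2, SE; edgeR adjusted p = 7.86e-05). Slc17a7, the vesicular glutamate transporter VGLUT1, stood at 12.5 CPM at DIV1, then 9.36 and 25.6 (DIV3), 83.0 and 123 (DIV5) and 228 and 229.7 (DIV7), a rise of 3.74 ± 0.47 (adjusted p = 0.00535; 0.0634 without DIV7 replicate 1). Its relative Slc17a6 (VGLUT2), the transporter of young hippocampal neurons, stood at 20.6 and 36.3 CPM at DIV3 and 19.7 and 30.4 at DIV7, and the libraries of both days overlapped (-0.23 ± 0.33, adjusted p = 0.690). Camk2a, the calcium kinase of the postsynaptic density, stood at 8.26 CPM at DIV1, then 17.7 and 31.0 (DIV3), 81.2 and 93.3 (DIV5) and 237 and 177 (DIV7) (3.11 ± 0.29, adjusted p = 0.000222).

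Fxyd7, a regulator of the sodium pump, stood at 4.54 and 2.13 CPM at DIV3 and 55.3 and 98.2 at DIV7, the largest change by the naming rule (4.43 ± 0.40, adjusted p = 0.000222). Rph3a, a Rab3 effector of synaptic vesicles, went from 1.98 and 3.63 CPM to 48.3 and 38.3 (4.00 ± 0.39, adjusted p = 0.000241), and the guanine deaminase Gda from 3.40 and 5.34 CPM to 76.5 and 42.2 (3.82 ± 0.40, adjusted p = 0.000446). In all of them the DIV7 libraries lay far above those of DIV3, with the DIV5 libraries between. Lynx1, a modulator of nicotinic receptors, rose by 3.59 ± 0.36, the kinase Ptk2b by 3.20 ± 0.31, and the ryanodine receptor Ryr2, a calcium release channel, by 2.99 ± 0.40. The long noncoding RNA Snhg11 rose by 3.51 ± 0.29 from DIV3, but stood at 60.2 CPM at DIV1, then 8.65 and 15.4 (DIV3), 57.3 and 67.7 (DIV5) and 139 and 131 (DIV7), so that DIV3 was its low point. All of the 12 largest rises kept their call under the other tools, scalings and cell selections except a stricter cell filter (at least 1000 genes and at most 5% mitochondrial UMIs), which left 5 and 22 members in the DIV7 libraries and ended the calls of 4, and all but Slc17a7 kept it without any single library.

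**Figure D2:**
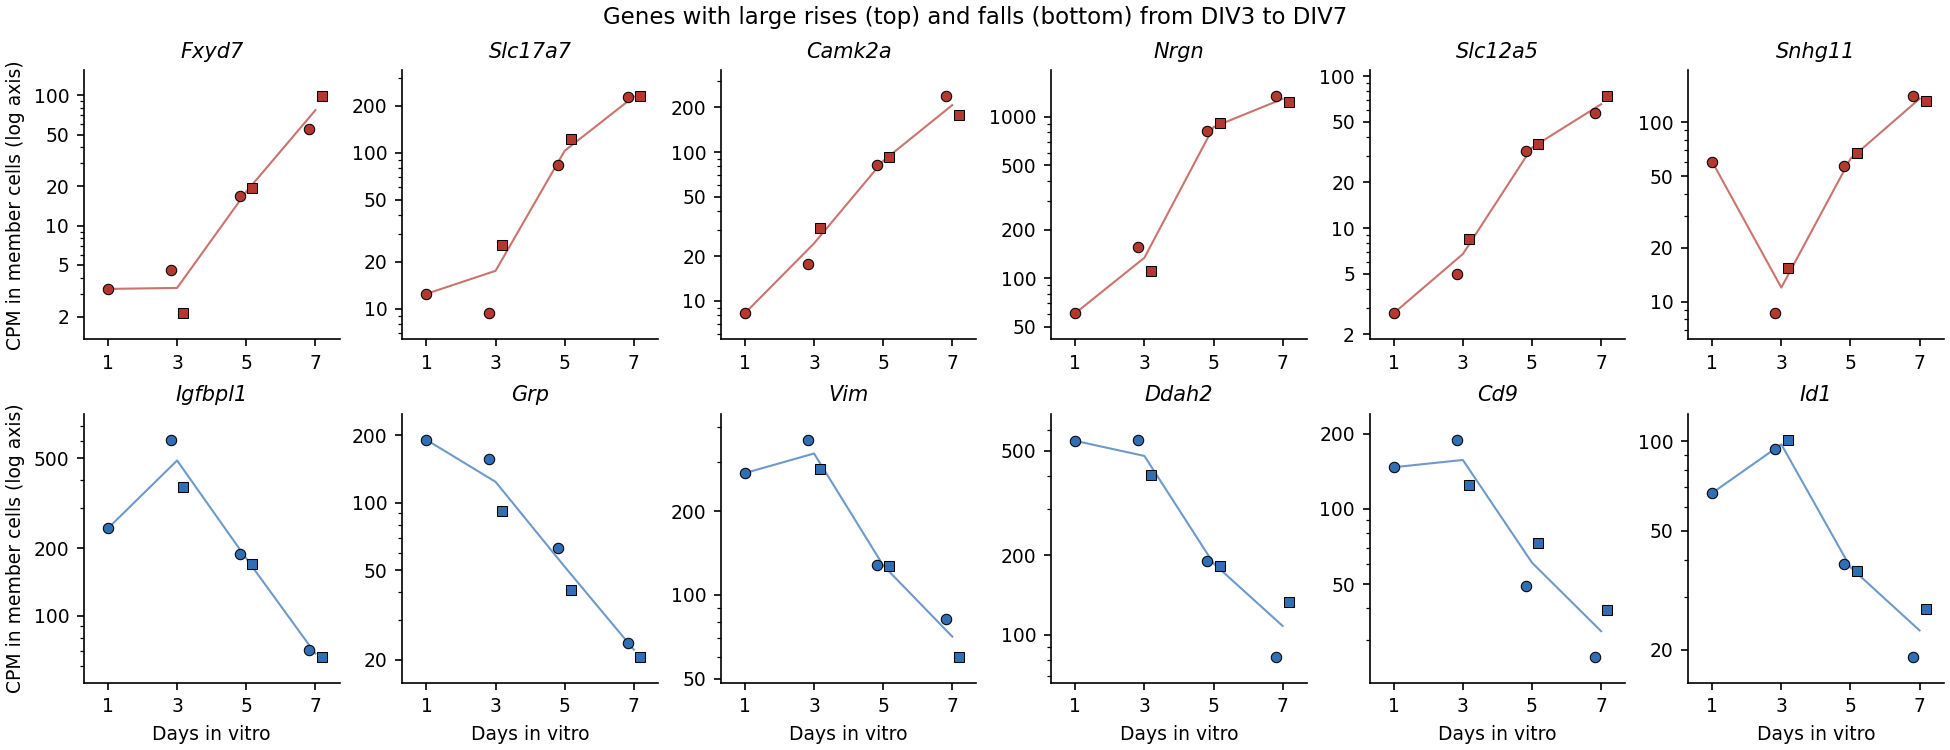
CPM of named genes in the pyramidal-type sums of each library against days in vitro, on log axes; circles are replicate 1 and the DIV1 library, squares are replicate 2, and lines join the day means. Nrgn goes from 156 and 111 CPM at DIV3 to 1341 and 1243 at DIV7, and Igfbpl1 from 605 and 375 to 70.2 and 65.8.

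The largest fall by the naming rule was that of Igfbpl1. Igfbpl1, a secreted protein of newborn neurons, stood at 245 CPM at DIV1, then 605 and 375 (DIV3), 189 and 171 (DIV5) and 70.2 and 65.8 (DIV7), so it was highest at DIV3 and lowest at DIV7 (-2.85 ± 0.26, adjusted p = 0.000222). Grp, which encodes gastrin-releasing peptide, fell along all days, from 191 CPM at DIV1 to 156 and 91.6 (DIV3), 62.7 and 41.1 (DIV5) and 23.8 and 20.6 (DIV7) (-2.46 ± 0.32, adjusted p = 0.00139). Ddah2, an enzyme that breaks down methylated arginines, went from 549 and 405 CPM to 82.4 and 133 (-2.17 ± 0.26, adjusted p = 0.000740). Vim, the filament vimentin of progenitors and glia that young neurons also carry, went from 361 and 284 CPM to 81.7 and 59.9 (-2.17 ± 0.23, adjusted p = 0.000421). For these 4 genes no DIV7 library reached a DIV3 or DIV1 library. Id1, an inhibitor of helix-loop-helix factors, fell by 2.12 ± 0.25, the tetraspanin Cd9 by 2.33 ± 0.31, the calcium-binding S100a11 by 2.52 ± 0.34, the membrane protein Ifitm2 by 2.20 ± 0.28, Fam181b by 2.41 ± 0.38 and the lipid droplet protein Tmem159 by 2.63 ± 0.40. Ndfip1, an adaptor of ubiquitin ligases, fell by 2.20 ± 0.31 and Cdk2ap1, a partner of the kinase CDK2, by 2.13 ± 0.35. Without DIV7 replicate 1 the calls of Grp, Cd9, S100a11, Ifitm2, Fam181b and Tmem159 ended (edgeR adjusted p = 0.0531 to 0.0825), and without DIV7 replicate 2 that of Fam181b did (0.0505). Under the stricter cell filter the calls of 8 of the 12 largest falls ended (adjusted p = 0.0571 to 0.859), those of Igfbpl1, Vim and Cd9 among them, and in the largest sub-cluster of the members alone, led by Crym, that of S100a11 did (0.0827).

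The stretches of genome upstream of 3 of these genes are shown because 2 rose and 1 fell in the cells chosen by Neurod factors, which bind E-boxes. They are the 250 bases before the first RefSeq start site on the coding strand, 5′ to 3′, from RefSeq on GRCm38.p6, at chr9:37552746-37552995 (minus strand) for Nrgn, chr7:45163671-45163920 (plus strand) for Slc17a7 and chr17:35058785-35059034 (plus strand) for Ddah2. Capitals mark CATCTG or its reverse complement CAGATG.
Nrgn: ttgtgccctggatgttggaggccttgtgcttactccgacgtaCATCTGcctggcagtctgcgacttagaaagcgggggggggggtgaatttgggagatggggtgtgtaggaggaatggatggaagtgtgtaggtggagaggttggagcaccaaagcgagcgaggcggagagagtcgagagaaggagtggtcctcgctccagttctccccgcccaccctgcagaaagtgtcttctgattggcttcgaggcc
Slc17a7: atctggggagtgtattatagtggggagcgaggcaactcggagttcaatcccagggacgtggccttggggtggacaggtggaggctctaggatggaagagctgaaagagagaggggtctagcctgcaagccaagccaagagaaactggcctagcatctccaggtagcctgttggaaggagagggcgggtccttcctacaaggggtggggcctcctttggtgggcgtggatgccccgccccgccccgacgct
Ddah2: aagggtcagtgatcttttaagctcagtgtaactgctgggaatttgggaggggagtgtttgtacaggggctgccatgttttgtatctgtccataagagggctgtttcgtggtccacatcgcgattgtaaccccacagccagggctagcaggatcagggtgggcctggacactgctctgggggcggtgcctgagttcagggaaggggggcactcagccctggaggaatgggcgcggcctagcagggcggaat
The Nrgn stretch held 1 match and the other 2 held 0. Of 32851 such stretches in the RefSeq table, 4745 (14.4%) held the motif on either strand. The table listed 7 of the 12 largest rises with 10 start sites, of which 1 held it, and 7 of the 12 largest falls with 7 start sites, of which 0 held it. A match describes letters only, and binding was not measured here.

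Many listed genes of the synapse rose, read against the background of 6.91% of all genes called higher and a median change of -0.04. These lists and those below were chosen with earlier results of these data known, so their counts are a description and not a test of the lists. Among 55 genes that build synaptic vesicles and release sites, 28 rose and 0 fell, with a median of 0.78, and their summed level went from 7256 and 7845 CPM at DIV3 to 11758 and 12170 at DIV7. Rimbp2, a scaffold between calcium channels and vesicles, rose by 3.55 ± 0.33 and the membrane fusion ATPase Nsf by 1.88 ± 0.21. Syn1, a synapsin of the vesicle surface, rose by 0.89 ± 0.20, the vesicle membrane protein Syp by 1.59 ± 0.32 and the fusion protein Snap25 by 0.78 ± 0.20. These rises were smaller than that of Rimbp2, and the calls of all 3 ended without either DIV7 library (edgeR adjusted p = 0.0901 to 0.170), those of Syn1 and Snap25 also without DIV3 replicate 1 (0.0743 and 0.0607). Of 42 postsynaptic scaffold and kinase genes, 26 rose and 0 fell, with a median of 1.00, and the sum went from 3524 and 3846 CPM to 8813 and 7971. Dlg4, the gene of the scaffold PSD-95, stood at 61.5 and 86.2 CPM at DIV3 and 235 and 134 at DIV7 (1.34 ± 0.35, adjusted p = 0.0387). Its call ended without DIV3 replicate 1, DIV3 replicate 2 and DIV7 replicate 1 (0.0605 to 0.259).

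Receptor genes rose in part. Of 25 glutamate receptor and auxiliary genes 8 rose and 1 fell, with a median of 0.71, beside 6.91% and 5.20% of all genes called higher and lower. Shisa6, an auxiliary protein of AMPA receptors, rose by 2.51 ± 0.25, the metabotropic receptor Grm5 by 1.82 ± 0.23 and the AMPA receptor subunit Gria3 by 1.94 ± 0.26. Gria1, another AMPA subunit, stood at 87.2 and 87.3 CPM at DIV3 and 199.8 and 152 at DIV7 (1.02 ± 0.22, adjusted p = 0.0143; 0.179 and 0.0508 without DIV7 replicate 1 and 2). Gria2, the subunit that limits calcium entry, stood at 329 and 567 CPM at DIV3 and 709.7 and 794 at DIV7, did not overlap between the days, and did not pass (0.75 ± 0.25, adjusted p = 0.0682; 0.00259 without DIV3 replicate 2). Among the NMDA receptor subunits Grin1 rose by 1.08 ± 0.28 and Grin2b by 0.78 ± 0.23, while Grin2a was at 0.42 ± 0.35 (adjusted p = 0.472; 0.00721 without DIV3 replicate 2). The calls of Grin1 and Grin2b ended when any single library of DIV5 or DIV7, or DIV3 replicate 1, was left out (adjusted p = 0.0514 to 0.218).

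Genes of chloride transport and of GABA receptors followed. Of 17 genes of GABA receptors and chloride transport 5 rose and 0 fell, with a median of 0.71, beside 6.91% of all genes called higher. Slc12a5, the cotransporter KCC2 that exports chloride, stood at 2.75 CPM at DIV1, then 4.96 and 8.54 (DIV3), 32.0 and 35.8 (DIV5) and 56.8 and 73.6 (DIV7) (3.28 ± 0.31, adjusted p = 0.000227). The importer Slc12a2 (NKCC1) stood at 29.8 CPM at DIV1, 13.6 and 17.7 at DIV3, and 20.8 and 23.6 at DIV7, within a narrow range after DIV1 (0.49 ± 0.30, adjusted p = 0.303). Gabra5, a subunit of GABA-A receptors, rose by 1.10 ± 0.25. Its call ended without either DIV7 library (adjusted p = 0.0584 and 0.209) and without DIV3 replicate 1 (0.0713).

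Adhesion and excitability genes rose without a called fall. Of 51 synaptic adhesion genes 16 rose and 0 fell, with a median of 0.71, beside 6.91% of all genes called higher. Cntn1, a contactin of axons, rose by 1.98 ± 0.20, the pentraxin receptor Nptxr by 2.23 ± 0.25 and the netrin-G ligand partner Ntng1 by 2.81 ± 0.38 (0.0558 without DIV7 replicate 1). Of 47 voltage-gated channel genes 19 rose and 0 fell, with a median of 0.97. The sodium channel Scn8a stood at 22.1 and 25.8 CPM at DIV3, later at 54.9 and 53.5 (DIV5) and 94.7 and 86.4 (DIV7), well apart on each day (1.92 ± 0.22, adjusted p = 0.000659). Scn2a, another sodium channel, rose by 1.30 ± 0.21 and the potassium channel Kcnma1 by 1.71 ± 0.28, and without DIV7 replicate 1 their adjusted p was 0.0612 and 0.0636.

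Genes of neurite growth did not move as one. Of 34 growth cone and microtubule genes 1 rose and 3 fell, with a median of -0.02, beside 6.91% and 5.20% of all genes called higher and lower. Gap43, the growth cone protein, stood at 2131 and 2044 CPM at DIV3 and 2077 and 2545 at DIV7 (0.15 ± 0.19, adjusted p = 0.654). Dcx and Stmn2, microtubule proteins of young neurons, were at 0.13 ± 0.25 and -0.17 ± 0.22 (adjusted p = 0.771 and 0.644), so for all 3 the days overlapped. Stmn1 fell by 0.88 ± 0.21 and the tubulin Tuba1a by 0.81 ± 0.23, and the growth cone protein Basp1 rose by 0.75 ± 0.21, and each of these calls ended when DIV3 replicate 1 or either DIV7 library was left out (adjusted p = 0.0745 to 0.273), those of Tuba1a and Basp1 also without either DIV5 library (0.0725 to 0.0775). Of 40 axon guidance genes 11 rose and 2 fell, with a median of 0.23, among them the receptor Robo2 (2.38 ± 0.30), its ligand Slit1 (2.08 ± 0.30) and the ephrin receptor Epha7 (1.48 ± 0.22). Without DIV7 replicate 1 the adjusted p of Slit1 and Epha7 was 0.0612 and 0.0656.

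**Figure D3:**
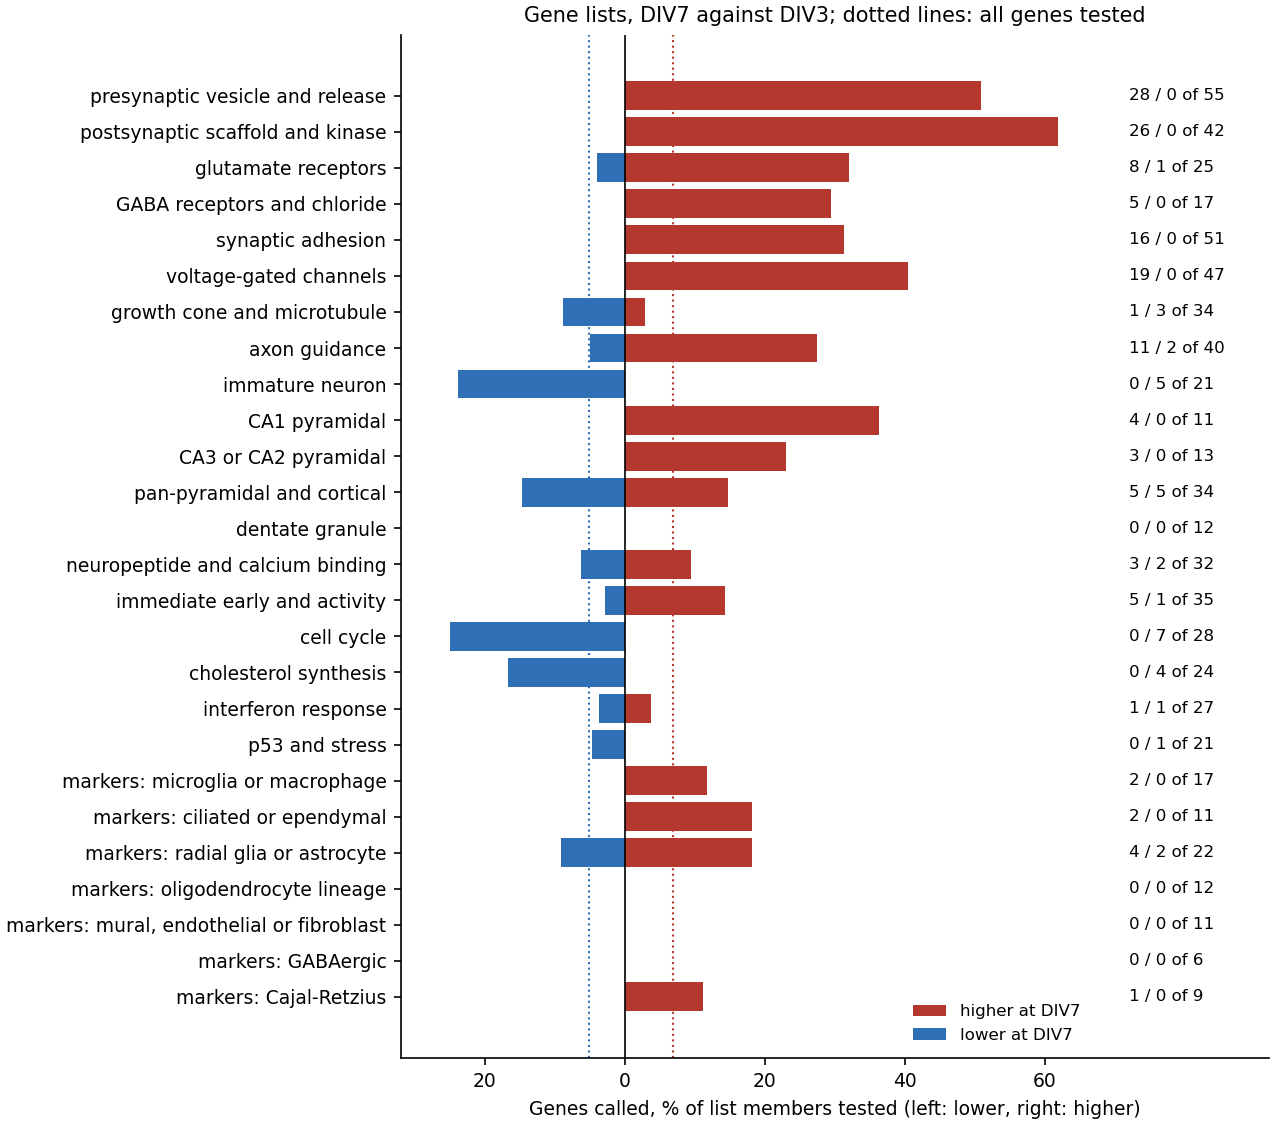
Percentage of each list's tested genes called higher (right, red) or lower (left, blue) at DIV7 than at DIV3 in the pyramidal-type sums, with the counts higher / lower of the genes tested; dotted lines mark 6.91% and 5.20% of all genes. Of the presynaptic and postsynaptic lists 28 of 55 and 26 of 42 genes are higher, and of the cell cycle list 7 of 28 are lower. The lists were chosen with earlier results of these data known.

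Genes of immature neurons, of division and of sterol synthesis were called in the other direction, against 5.20% of all genes called lower. Of 21 immature neuron genes 0 rose and 5 fell, with a median of -0.40, among them Hes6, a neurogenic repressor (-1.75 ± 0.23), and the histone methyltransferase Ezh2 (-1.93 ± 0.26). Sox11 and Sox4, transcription factors of young neurons, lay at -0.79 ± 0.26 and -1.16 ± 0.48 and did not pass (adjusted p = 0.0642 and 0.181; Sox11 0.0375 without DIV3 replicate 1). Of 28 cell cycle genes 0 rose and 7 fell, with a median of -1.40, led by the kinase Cdk4, at 284 and 215 CPM at DIV3 and 79.8 and 76.6 at DIV7 (-1.67 ± 0.23, adjusted p = 0.00127). The reductase subunit Rrm2 went from 13.8 and 14.1 CPM to 4.46 and 3.93 (-1.69 ± 0.37, adjusted p = 0.0156), a low level throughout. Of 24 cholesterol synthesis genes 0 rose and 4 fell, with a median of -0.54, led by Fdps, the farnesyl diphosphate synthase (-1.71 ± 0.28, adjusted p = 0.00474). Without DIV7 replicate 1 the calls of Hes6, Ezh2, Cdk4, Rrm2 and Fdps ended (adjusted p = 0.0543 to 0.153), and without DIV7 replicate 2 those of Rrm2 and Fdps (0.0945 and 0.0614).

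Genes tied to the CA1 and CA3 fields rose in part. Of 11 CA1 genes 4 rose and 0 fell, with a median of 1.02, beside 6.91% of all genes called higher. The same list in the comparison of this change with that of Prox1-positive neurons, described below, had 0 calls by edgeR. The median difference there was -0.51, with 2 of 11 genes above 0, so the rise was not particular to pyramidal-type cells. Wfs1, the endoplasmic reticulum protein wolframin of CA1 neurons, stood at 1.18 CPM at DIV1, then 7.66 and 11.7 (DIV3), 13.9 and 13.4 (DIV5) and 33.1 and 30.4 (DIV7) (1.73 ± 0.31, adjusted p = 0.00579). Crym, which encodes a thyroid hormone binding protein, stood at 180.3 CPM at DIV1, then 186 and 143 (DIV3), 348 and 327 (DIV5) and 365 and 309 (DIV7), so it changed between DIV3 and DIV5 and was level after (1.04 ± 0.21, adjusted p = 0.0112). Among sub-clusters of the members, the one led by Crym held 37.8% and 33.9% of the members at DIV3 and 60.2% and 51.1% at DIV7. In that sub-cluster alone Crym rose by 0.81 ± 0.23 (edgeR adjusted p = 0.0366) and Wfs1 by 1.53 ± 0.35 (0.0162), and the call of Nov ended (0.173). The sub-cluster came from these same data and Crym is its leading gene, so the value of Crym there is not an independent check. Nov, a matricellular protein, stood at 0.709 and 3.20 CPM at DIV3 and 13.4 and 7.85 at DIV7 (adjusted p = 0.0190). Without DIV7 replicate 1 the calls of these 3 ended (adjusted p = 0.0995 to 0.253), without DIV7 replicate 2 those of Crym and Nov (0.0561 and 0.0681), and without DIV3 replicate 1 that of Nov (0.0557). Of 13 CA3 or CA2 genes 3 rose and 0 fell, with a median of 0.37. Cpne4, a calcium-dependent membrane protein of CA3, rose by 1.30 ± 0.25 (0.0626 and 0.0901 without DIV7 replicate 1 and 2), the adhesion gene Nectin3 by 0.97 ± 0.25 and Coch by 1.39 ± 0.37. The calls of Nectin3 and Coch ended without DIV3 replicate 1, DIV7 replicate 1 or either DIV5 library (adjusted p = 0.0561 to 0.351), and that of Coch also without DIV7 replicate 2 (0.121). Grik4, a kainate receptor of CA3, was at 0.53 ± 0.24 (adjusted p = 0.161; 0.0419 without DIV3 replicate 2).

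Transcription factors of pyramidal and cortical neurons split. Of 34 genes of this list 5 rose and 5 fell, with a median of -0.14, beside 6.91% and 5.20% of all genes called higher and lower. The mineralocorticoid receptor Nr3c2 stood at 1.44 CPM at DIV1, then 1.56 and 1.49 (DIV3), 14.9 and 15.4 (DIV5) and 34.5 and 15.7 (DIV7) (4.09 ± 0.44, adjusted p = 0.000421). Foxp1 rose by 1.06 ± 0.23 and Emx1, a homeobox factor of the early dorsal forebrain, fell by 1.27 ± 0.27. Without either DIV7 library the calls of Foxp1 and Emx1 ended (adjusted p = 0.0661 to 0.182), and that of Foxp1 without DIV3 replicate 1 (0.0600). Bcl11b (1.20 ± 0.34, adjusted p = 0.0549), Tbr1 (1.06 ± 0.33, adjusted p = 0.0541) and Pou3f1 (1.02 ± 0.40, adjusted p = 0.134) did not pass. Bcl11b passed without DIV5 replicate 1 or 2 (0.0159 and 0.0165), and Pou3f1 without DIV3 replicate 2 (0.0399). Zbtb20, the factor that sets hippocampal field identity, stood at 3061 and 3618 CPM at DIV3 and 2155 and 2452 at DIV7 (-0.54 ± 0.19, adjusted p = 0.0916). Fezf2 (-0.30 ± 0.21), Meis2 (-0.48 ± 0.25) and Mef2c (-0.43 ± 1.06) did not pass either, with adjusted p of 0.221 to 0.837, and Meis2 passed without DIV3 replicate 1 (0.0481). The 12 dentate granule genes tested had 0 calls by edgeR and a median of 0.39.

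Peptide and activity genes differed from library to library. Of 32 neuropeptide and calcium-binding genes 3 rose and 2 fell, with a median of 0.53. That is near the 6.91% and 5.20% of all genes called higher and lower, so the counts say little about this list. The opioid precursor Pdyn went from 2.13 and 1.28 CPM at DIV3 to 8.91 and 7.85 at DIV7 (adjusted p = 0.0150; 0.156 and 0.0649 without DIV7 replicate 1 and 2). The somatostatin receptor Sstr2 fell by 0.98 ± 0.25 (adjusted p = 0.0257; 0.0950 to 0.196 without DIV3 replicate 1 or either DIV7 library). Cck stood at 912 and 488 CPM at DIV3 and 486 and 411 at DIV7, with all libraries of DIV7 below those of DIV3 by a small margin (-0.64 ± 0.30, adjusted p = 0.186; 0.00894 without DIV3 replicate 2). Of 35 immediate early and activity genes 5 rose and 1 fell, with a median of 1.13. Their summed level was 2562 CPM at DIV1, then 2261 and 7031 (DIV3), 5706 and 10478 (DIV5) and 9560 and 10235 (DIV7), so that the 2 libraries of DIV3 and of DIV5 stood far apart. Fos, the early transcription factor, stood at 249.6 CPM at DIV1, then 168 and 1043 (DIV3), 471 and 1548 (DIV5) and 1016 and 1529 (DIV7), and did not pass (1.07 ± 1.18, adjusted p = 0.621). Arc, an activity-induced gene of dendrites, was at 0.425 and 14.1 CPM at DIV3 and 73.9 and 73.6 at DIV7 (adjusted p = 0.321). The growth factor Bdnf was at 0.68 ± 0.38 (adjusted p = 0.286; 0.0196 without DIV3 replicate 2). Ptgs2, the inducible cyclooxygenase, rose by 3.52 ± 0.48 and the phosphatase Dusp5 by 1.94 ± 0.34 (0.130 without DIV7 replicate 1). Rasgrp1, an activator of Ras, was counted 2 times at DIV3 and 49 times at DIV7, which per UMI is a ratio of 80.7 (exact counting interval 21.2 to 685).

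Genes listed as markers of other cell types were read in the same sums, beside 6.91% and 5.20% of all genes called higher and lower. Of 17 microglial markers 2 rose and 0 fell, with a median of 2.15, and their summed level was 108 CPM at DIV1, then 215 and 134 (DIV3), 557 and 267 (DIV5) and 512 and 1033 (DIV7). Lpl, lipoprotein lipase, was one of them, at 45.5 and 38.0 CPM at DIV3, later at 352 and 127 (DIV5) and 372 and 279.8 (DIV7) (2.97 ± 0.51, adjusted p = 0.0204). Without Lpl the summed level of the list was 83.0 CPM at DIV1, then 170 and 96.1 (DIV3), 205 and 140 (DIV5) and 140 and 753 (DIV7), so that DIV7 replicate 2 stood apart. Per total UMIs, Lpl stood in members at 357 and 127 CPM at DIV5 and 381 and 278 at DIV7. In cells picked by microglial genes it stood at 255 and 350.2 and then 227 and 477, below the members in replicate 1 of both days and above them in replicate 2. It was also the second leading gene of sub-cluster 0 of the members, at 201 CPM against 55.9 in the others. Its call in members ended without either DIV3 or either DIV7 library (adjusted p = 0.0701 to 0.185) and in sub-cluster 0 alone (0.0836). Of 22 radial glia and astrocyte markers 4 rose, namely Slc1a2, Aqp4, Mt1 and Gja1, and 2 fell, Vim and Id3. Their median change was 0.40 and their sum 3170 and 2278 CPM at DIV3 and 2916 and 4457 at DIV7. The metallothionein Mt1 rose by 1.31 ± 0.25 (0.0602 and 0.0845 without DIV7 replicate 1 and 2), while Gfap did not pass (2.04 ± 0.66, adjusted p = 0.130). Of 11 markers of ciliated cells 2 rose and 0 fell (median 1.01), 1 of 9 Cajal-Retzius markers rose, namely Snhg11 (median 0.22), and the markers of oligodendrocytes, of mural, endothelial and fibroblast cells, and of GABAergic neurons had 0 calls by edgeR among 12, 11 and 6 genes (medians -0.59, -0.38 and -0.39). Of 27 interferon genes 1 rose and 1 fell, with a median of -2.18 and a change above 0 in 2 of them. Their sum stood at 1317 CPM in DIV3 replicate 1 and 142 to 508 in the other 6 libraries. Of 21 p53 and stress genes 0 rose and 1 fell, with a median of -0.31. With cells that held markers of other types left out, 1364 genes passed, and with sub-clusters led by such markers left out, 1602.

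For Slc17a7 and Nrgn the share of member cells with a UMI rose with day also once each cell was thinned to 4000 UMIs. The rule was applied again to the thinned counts, which left 40 to 780 members a library. The thinned members were thus a new selection and not the same cells at one depth. A cell could enter it once its Prox1 or other excluding UMIs were lost, and the part of this in the shares below was not tested. Slc17a7 was seen in 7.02% of members at DIV1, then 15.1% and 22.5% (DIV3), 57.5% and 66.5% (DIV5) and 92.5% and 88.9% (DIV7). After thinning it was seen in 2.18%, then 3.10% and 3.72%, 23.5% and 29.4%, and 54.9% and 60.0%. Microglia picked by their genes, which should lack it, had 0% to 2.68% after thinning, at a median depth before it of 9668 to 22728 UMIs. The thinned DIV1 and DIV3 values of Slc17a7 thus lay near that background, and those of DIV5 and DIV7 far above it. Nrgn was seen in 9.49% of thinned members at DIV1, then 36.2% and 20.7% (DIV3), 74.7% and 74.9% (DIV5) and 89.4% and 90.0% (DIV7) (13.6%, then 63.5% and 46.6%, 84.8% and 84.2%, and 94.7% and 95.6% before thinning), against 0% to 2.06% in microglia. Grp went the other way, from 45.0% of thinned members at DIV1 to 40.6% and 24.0%, 18.8% and 9.96%, and 6.19% and 2.50% (58.2%, then 73.3% and 56.7%, 41.6% and 37.8%, and 25.6% and 28.9% before thinning), against 0% to 1.56%. Between the DIV1 library and DIV3 replicate 1 the Grp share rose before thinning and fell after it. Gfap was seen in 2.95% of thinned members at DIV1 and 38.9% and 57.5% at DIV7 (6.60%, and 84.2% and 100% before thinning), but microglia stood at 10.9% and at 42.0% and 69.7%, so the member share did not exceed that background on those days.

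**Figure D4:**
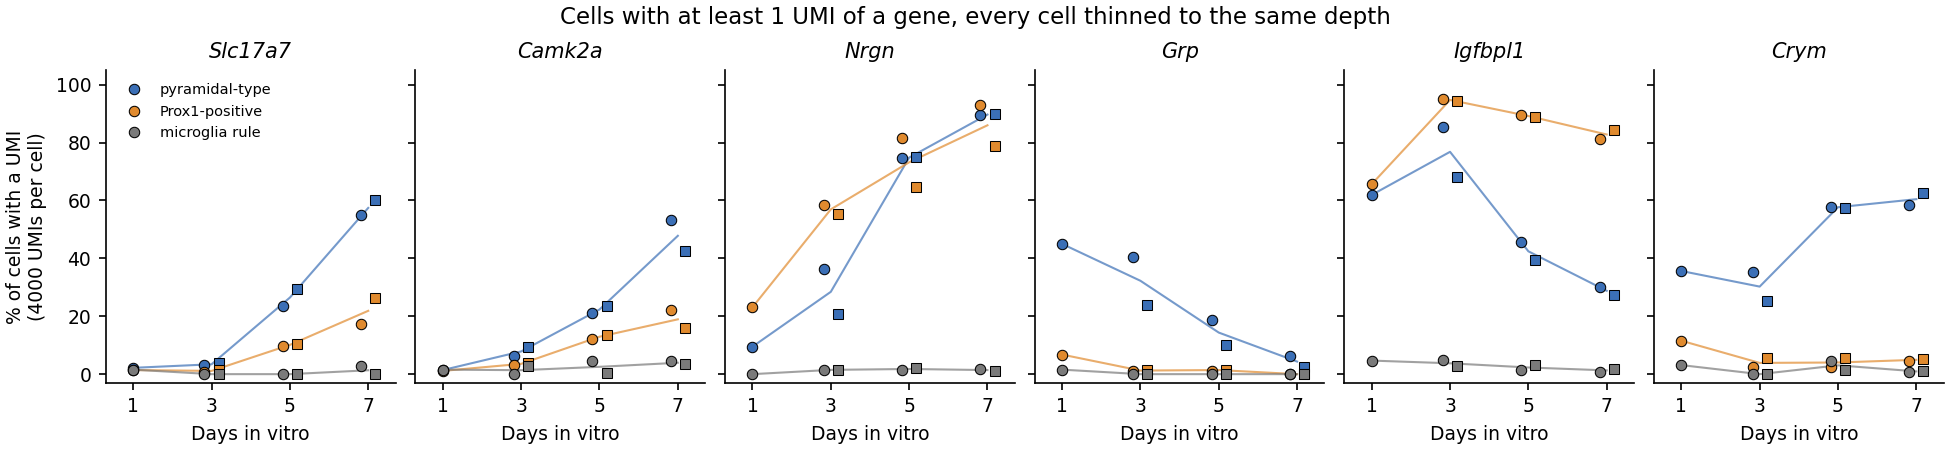
Percentage of cells with at least 1 UMI of a gene in each library against days in vitro, every cell thinned to 4000 UMIs, for pyramidal-type cells, Prox1-positive neurons and microglia picked by their genes; circles are replicate 1 and the DIV1 library, squares are replicate 2, and lines join the day means. Both neuron groups were picked again on the thinned counts. Slc17a7 goes from 2.18% of pyramidal-type cells at DIV1 to 54.9% and 60.0% at DIV7, while Igfbpl1 goes from 61.9% to 30.1% and 27.5% in them and stands at 81.4% and 84.2% in Prox1-positive neurons at DIV7.

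Several of the same genes had changed by DIV5. From DIV3 to DIV5, 154 of 12830 genes passed (1.20%; 121 higher, 0.943%, and 33 lower, 0.257%), with a median over all genes of -0.01. Nrgn rose by 2.69 ± 0.22, Slc12a5 by 2.35 ± 0.30 and Snhg11 by 2.40 ± 0.28. Rprml, a relative of the cell cycle inhibitor Reprimo, stood at 41.4 and 75.4 CPM at DIV3, later at 272 and 329.9 (DIV5) and 302 and 370.1 (DIV7), a step between DIV3 and DIV5 with little after it (2.37 ± 0.28, adjusted p = 0.00482). Mal2, a membrane traffic protein, rose by 2.25 ± 0.33 and the adenylate kinase Ak5 by 2.11 ± 0.26. The largest falls were S100a11 (-2.10 ± 0.30), Ifitm2 (-2.01 ± 0.26), the chloride channel protein Clic1 (-1.83 ± 0.34), S100a6 (-1.82 ± 0.33), Fam181b (-1.61 ± 0.32) and Pdlim4 (-1.58 ± 0.26). Without DIV5 replicate 2 all 6 lost their call (edgeR adjusted p = 0.0899 to 0.300), and Mal2 lost its call without DIV5 replicate 1 or 2 (0.0505 and 0.0635). Clic1, S100a6, Fam181b and Pdlim4 also lost theirs without DIV5 replicate 1 or either DIV7 library (0.0510 to 0.131), and Clic1, Fam181b and Pdlim4 without DIV3 replicate 1 (0.0515 to 0.165). S100a6 lost its call as well in thinned cells, without top doublet scores and without cells or sub-clusters with other markers (0.205 to 0.431). By list, 8 of 42 postsynaptic, 5 of 55 presynaptic, 4 of 51 adhesion and 2 of 47 channel genes rose, with medians of 0.75, 0.43, 0.60 and 0.55, and 2 of 11 CA1 genes rose, Crym and Nov. The count was 36 without DIV3 replicate 1, 1359 without DIV3 replicate 2, 51 and 26 without DIV5 replicate 1 and 2, and 32 and 45 without DIV7 replicate 1 and 2.

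From DIV5 to DIV7 no call was made by edgeR: 0 of 12830 genes passed (0.00%; 819 at an unadjusted p under 0.05, smallest adjusted p 0.212), and DESeq2 called 7. Fxyd7 was at 2.04 ± 0.35 (adjusted p = 0.270), Camk2a at 1.25 ± 0.27 (0.416), Slc17a7 at 1.15 ± 0.42 (0.719), Nrgn at 0.58 ± 0.21 (0.661) and Igfbpl1 at -1.40 ± 0.25 (0.287). The count was 7 without either DIV3 library and 1 without DIV5 replicate 2.

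From DIV1 to DIV3 the comparison rests on 1 DIV1 library, which the fit takes to vary like the others, and 68 genes passed (0.530%; 49 higher, 0.382%, and 19 lower, 0.148%), with a median over all genes of 0.02. Zfp771, a zinc finger gene, stood at 8.52 CPM at DIV1 and 81.3 to 122 in the 6 later libraries, so it had reached its level by DIV3 (3.58 ± 0.35, adjusted p = 0.00112). Cnih2, an AMPA receptor auxiliary protein, stood at 45.0 CPM at DIV1, then 494 and 279.9 (DIV3), 785 and 563 (DIV5) and 1049.8 and 792 (DIV7) (3.10 ± 0.42, adjusted p = 0.0128). The BMP antagonist Nbl1 rose by 2.89 ± 0.35, Habp4 by 2.85 ± 0.32 and Inafm1 by 2.45 ± 0.32. The falls were Snhg11 (-2.35 ± 0.31), the one-carbon enzyme Mthfd2, at 91.3 CPM at DIV1 and 14.7 to 23.0 later (-2.23 ± 0.30), the RNA-binding protein Msi2 (-2.10 ± 0.33), Tiam2 (-1.55 ± 0.30), Insm1, a zinc finger factor of newborn neurons (-1.55 ± 0.30), and Tsc22d3, a glucocorticoid-induced gene (-1.44 ± 0.27). Tiam2, Insm1 and Tsc22d3 lost their call without any single library of DIV5 or DIV7 (edgeR adjusted p = 0.0779 to 0.105), Tiam2 and Tsc22d3 also without DIV3 replicate 1 (0.0655 and 0.0668), and Msi2 without DIV7 replicate 1 or 2 (0.0642 and 0.0579). Msi2 also lost it in sub-cluster 0 alone (0.350), as did Snhg11 (0.624). Of 55 presynaptic genes 3 rose and of 42 postsynaptic genes 1 did. Of 9 Cajal-Retzius markers 2 fell, Snhg11 and Reln, and 0 rose (median -2.35); Reln, the secreted protein reelin, stood at 27.8 CPM at DIV1 and 0.709 and 1.28 at DIV3, and the part of such cells in the fall of Snhg11 was not tested. The count was 464 without DIV3 replicate 2, 34 and 36 without DIV5 replicate 1 and 2, and 20 and 24 without DIV7 replicate 1 and 2.

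The change from DIV3 to DIV7 was compared with that of the 1945 Prox1-positive neurons of the same libraries by an interaction term over 14 sums, with the library as a block. Of 13147 genes 12 differed (0.0913%; 3 higher, 0.0228%, and 9 lower, 0.0685%, in pyramidal-type cells), with a median difference of -0.01. The clearest was Igfbpl1. On the common scale of both groups it stood in members at 249.9 CPM at DIV1, then 616 and 382 (DIV3), 196 and 175 (DIV5) and 72.6 and 66.6 (DIV7). In Prox1-positive neurons it stood at 259, then 729.9 and 528, 657 and 639, and 455 and 320.1. The members were lower in all 7 libraries. From DIV3 to DIV7 the pyramidal-type cells changed by -2.85 ± 0.26 and the Prox1-positive ones by -0.69 ± 0.24 (difference -2.15 ± 0.18, edgeR adjusted p = 2.94e-06). None of the alternatives run ended its call. Thinned to one depth, 61.9% of members held an Igfbpl1 UMI at DIV1, then 85.4% and 68.2% (DIV3), 45.5% and 39.4% (DIV5) and 30.1% and 27.5% (DIV7), against 65.6%, then 94.9% and 94.5%, 89.6% and 88.8%, and 81.4% and 84.2% of Prox1-positive neurons and 0.893% to 4.76% of microglia. Both neuron groups were picked again after thinning. Before it the member shares were 72.7%, then 98.4% and 91.6%, 82.0% and 75.2%, and 66.2% and 68.9%.

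The calls of the other genes named here each ended when some single library was left out. Sec11c, a subunit of the signal peptidase, stood in members at 196 and 135 CPM at DIV3 and 125 and 101 at DIV7, and in Prox1-positive neurons at 97.5 and 78.0 and then 169 and 124, so the order of both groups turned (-1.29 ± 0.19, edgeR adjusted p = 0.00879; 0.235 without DIV3 replicate 1 and 0.205 without DIV7 replicate 1). Scg2, a secretogranin of dense-core vesicles, stood in members at 178 and 391 CPM and then 398 and 448, and in Prox1-positive neurons at 69.0 and 193 and then 359 and 496 (-1.18 ± 0.18, adjusted p = 0.00879; 0.254 without DIV3 replicate 1). Nrn1, a neurite growth protein, stood in members at 38.3 and 186 CPM and then 222 and 208, and in Prox1-positive neurons at 24.2 and 110.3 and then 308 and 278 (-1.16 ± 0.18, adjusted p = 0.00951; 0.116 to 0.183 without either DIV3 library or DIV7 replicate 1). Msmo1, a sterol oxidase of cholesterol synthesis that is outside the naming rule and was chosen after its values were seen, differed by -1.09 ± 0.17 (adjusted p = 0.00879; 0.0926 to 0.179 without either DIV3 library or DIV7 replicate 1). For Nrn1 the libraries of DIV3 lay further apart than the groups did, and for Scg2 both lay apart to a similar degree. Thrsp, a regulator of lipid synthesis, differed by -2.82 ± 0.49 (0.235 without DIV3 replicate 1 and 0.823 without DIV7 replicate 1) and the kinase Sgk1 by -1.17 ± 0.20 (0.292 and 0.142 without the same libraries, 0.0643 without DIV3 replicate 2). Top2a, a topoisomerase of dividing cells, had 337 counts at DIV3 and 2 at DIV7 in Prox1-positive neurons, 40.5 times fewer per UMI (exact counting interval 11.1 to 336), and stood in members at 19.8 and 12.8 and then 12.7 and 6.96 CPM (difference 4.72 ± 0.77, adjusted p = 0.0159; 0.617 without DIV7 replicate 1). The count was 3 without DIV3 replicate 1, 43 and 61 without DIV5 replicate 1 and 2, 5 without DIV7 replicate 1 and 80 without DIV7 replicate 2.

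Several synaptic genes that rose in pyramidal-type cells also rose in Prox1-positive neurons, Slc17a7 by 4.15 ± 0.55, Camk2a by 2.98 ± 0.39, Slc12a5 by 3.44 ± 0.54 and Nrgn by 2.54 ± 0.24 (log2, SE; edgeR adjusted p = 0.00150 to 0.0106). The changes differed by -0.26 ± 0.29 for Slc17a7 (edgeR adjusted p = 0.825), and the difference of Camk2a was 0.19 ± 0.27 (0.877), that of Slc12a5 -0.11 ± 0.38 (0.974) and that of Nrgn 0.76 ± 0.19 (0.183; 0.0444 without DIV5 replicate 1). Nrgn stood at 159 and 114 CPM in members at DIV3 and 358 and 323 in Prox1-positive neurons, and at 1388 and 1259 against 2264.5 and 1702 at DIV7. The presynaptic and postsynaptic lists had 0 calls by edgeR in this comparison and medians of -0.06 and -0.07.

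**Figure D5:**
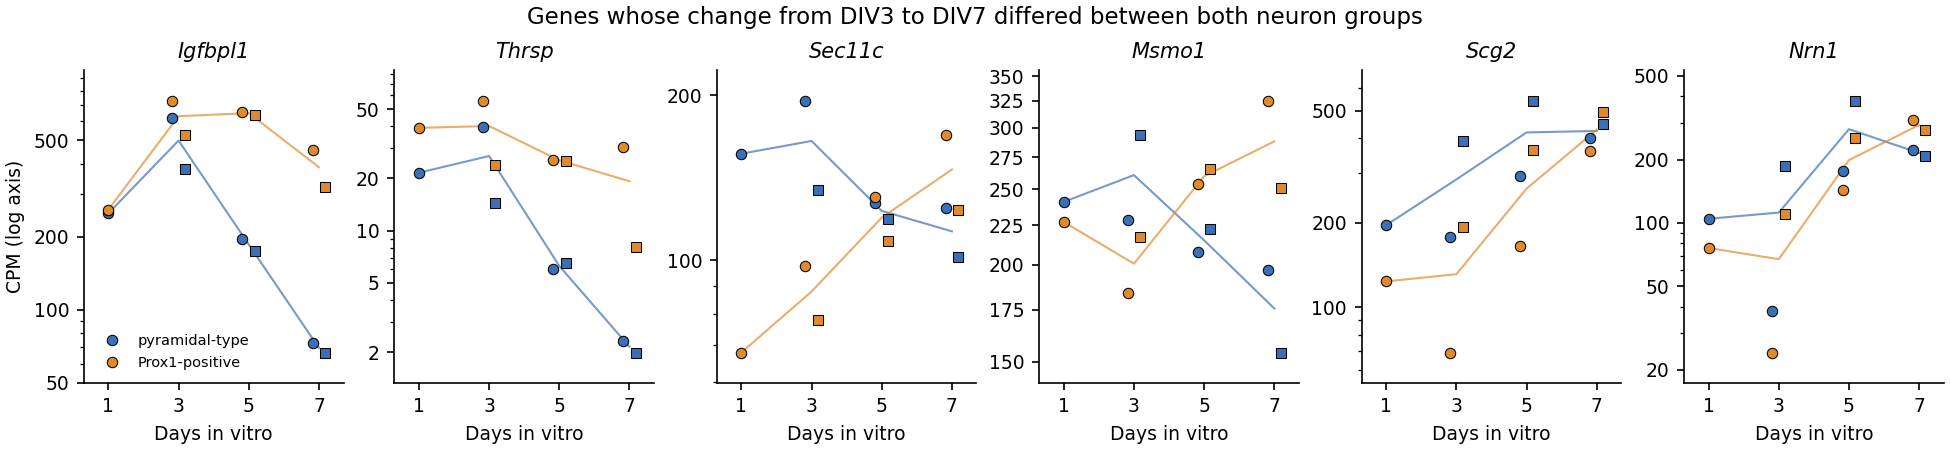
CPM on log axes of 6 genes whose DIV3 to DIV7 change differed between pyramidal-type cells and Prox1-positive neurons, against days in vitro; circles are replicate 1 and the DIV1 library, squares are replicate 2, and lines join the day means. Igfbpl1 in the pyramidal-type sums ends at 72.6 and 66.6 CPM and in the Prox1-positive sums at 455 and 320.1.

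Levels that set both groups of neurons apart are given as a description, since the rules chose the groups. Those rules differed in Prox1, and also in that only members needed a Neurod6 UMI and only the other group could pass by Neurod1. Grp stood at a mean of 85.7 CPM over the 7 libraries in members and 21.5 in Prox1-positive neurons, the transcription cofactor Lmo1 at 163 and 54.0, Cck at 552 and 199.6, Gap43 at 2197 and 984 and Rprml at 215 and 76.4, each higher in members in all 7 libraries. Lower in members in all 7 were Prox1os, the transcript opposite Prox1 (1.59 and 80.4 CPM), the guidance gene Sema5a (9.99 and 102), the zinc finger gene Zfp536 (3.55 and 57.8), the synapse organiser C1ql3 (27.4 and 149) and the vesicle protein Synpr (20.9 and 105). Such an order was frequent. Among genes that averaged 20 CPM or more in either group, 1012 were higher in members in all 7 libraries. A further 522 were lower in all 7, and 4764 were mixed (predicted, haemoglobin, ribosomal, mitochondrial and rule genes left out). Reads of Prox1 and Prox1os overlap on the genome, and how the counting treated strand is not given in the sources used here.

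The members were not of one kind. Their own clustering, with each library centred, gave 9 sub-clusters, which are described by leading genes and not tested. Sub-cluster 0 (847 cells) was led by Crym, Lpl, Sertm1 and Rprml, with Crym at 436 CPM against a mean of 89.9 in the others and Cck at 884 CPM. Sub-cluster 1 (553 cells) was led by Tmem132c, Klf4, S100a10 and Cpne4, with Cpne4 at 101 CPM and the kainate receptor Grik4 at 72.3 where sub-cluster 0 had 22.1 and 25.4. Both held cells of all 7 libraries, and together they held most of the members at DIV7. Members of different days therefore lay in part in different sub-clusters, and the part of this in the changes between days was not tested beyond the fit in sub-cluster 0 alone. Sub-cluster 2 (431 cells, 319 from DIV1) was led by Gm14964, Nxph4 and Grp and had Slc17a7 at 3.49 CPM, Nrgn at 33.0 and Sox11 at 2790, with a median of 5748 UMIs. Sub-cluster 3 (245 cells, 170 from DIV1) was led by Sst, Tshz2 and Nptx2, with Sst at 56.6 CPM but seen in 5.71% of its cells (10.7% in sub-cluster 0). Sub-clusters mostly of 1 library may be that library. Sub-cluster 4 (98 cells) was led by Sla, Nefm, Mef2c and Mpped1 and held Pou3f1 at 187 CPM, against 66.3 in sub-cluster 0.

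The small sub-clusters went against the name in part. Sub-cluster 5 (92 cells) was led by haemoglobin genes, Lgals1 and S100a6 with Gfap at 1280 CPM, and sub-cluster 6 (66 cells) by the oligodendrocyte genes Mbp and Olig1, and their median cells held 23353.5 and 21289.5 UMIs, the highest among the 9. Sub-cluster 7 (38 cells) was led by Prox1os, Sema5a and Zfp536 and had Neurod1 at 992 and Cck at 4.20 CPM, values on the Prox1-positive side of the comparison above although no Prox1 UMI was counted in them. Sub-cluster 8 (24 cells, 19 from DIV5 replicate 2) was led by Igfbpl1 at 3672 CPM. With sub-cluster 0 alone in place of all members, 838 genes passed from DIV3 to DIV7, 732 of them among the 1554, and the 12 largest rises all kept their call.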

How the data were processed

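UMI counts per gene and barcode came from 7 droplet libraries (10x 3' chemistry). Per the submitters' processing notes the counts were made with Cell Ranger 4.0.0 and mm9, while the file headers name software version 3.0.2; the deposited counts are whole numbers over 31053 genes, not normalized. Barcodes needed 500 genes or more and no more than 10% of UMIs from mitochondria. Counts were summed per library over the member cells and tested in edgeR 4.0.16 (TMM, filterByExpr with a minimum count of 10, robust quasi-likelihood, 4 day means over all 7 libraries, Benjamini-Hochberg, threshold 0.05), with DESeq2 1.42.0 as an alternative, in R 4.3.3. Cells, thinning to 4000 UMIs and figures used Python 3.11.15 with scanpy 1.11.5. For results in thinned cells the rules of both neuron groups were applied again to the thinned counts. The share against day was tested by exact permutation over libraries. Microglia used as background held at least 5 UMIs of microglial genes and were in neither neuron group. A doublet caller marked too few barcodes to be used, so cells with the top scores were removed as an alternative, at 0.8% per 1000 barcodes.

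Members and the 26 gene lists were chosen with earlier results of these data known. Genes are named by rule: from DIV3 to DIV7 the 12 largest rises and 12 largest falls that passed, averaged 20 CPM or more and did not overlap between days, leaving out predicted, haemoglobin, ribosomal, mitochondrial and rule genes; 6 of each in the other comparisons; up to 3 of each list with the smallest p; and 36 textbook genes. Some genes of this rule are not reported here. Counting sets the precision: member sums held 1023923 to 7598939 UMIs. No annotation of mm9 was used here, so genes of the files carry no coordinates; promoters come from RefSeq on GRCm38.p6. Alternatives were another tool, scaling and filter, each library left out, thinned cells, stricter rules, and cells with other markers, top doublet scores or 2 sub-clusters left out.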

Additional observations from a re-analysis of the deposited data

Results flagged for a closer look

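The change from DIV3 to DIV7 differed between pyramidal-type cells and Prox1-positive neurons for 12 genes by an interaction test (edgeR, adjusted p under 0.05), and these are all of them. The differences (log2, pyramidal-type minus Prox1-positive) were -2.15 for Igfbpl1, -2.82 for Thrsp, -1.29 for Sec11c, -1.18 for Scg2, -1.17 for Sgk1, -1.16 for Nrn1 and 4.72 for Top2a, whose values stand in the report. For 5 genes outside the naming rule the differences were -1.09 for Msmo1, -1.68 for the predicted gene Gm26699, -0.78 for the cytokine Mif, 2.38 for the extracellular protein Spon1 and 5.38 for C1qb.

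C1qb is a complement gene of microglia. In members it stood at 0.578 and 5.66 CPM at DIV3 and 2.31 and 20.9 at DIV7. In Prox1-positive neurons it had 109 counts at DIV3 and 2 at DIV7, 13.1 times fewer per UMI (exact counting interval 3.54 to 109). With cells that held markers of other types left out, the difference of C1qb was 0.33 (edgeR adjusted p = 0.991). C1qb is itself one of those markers, so leaving out such cells had to shrink its difference, and this value decides nothing about its source. Spon1 stood in members at 1.73 and 4.14 CPM at DIV3 and 41.1 and 21.9 at DIV7, and in Prox1-positive neurons at 8.71 and 11.5 and then 31.1 and 12.2. Mif stood in members at 1436 and 1488 CPM at DIV3 and 793 and 1093 at DIV7, and in Prox1-positive neurons at 1033 and 988 and then 1046 and 1161. The calls of C1qb, Spon1, Mif, Msmo1 and Gm26699 each ended without DIV3 replicate 1 (edgeR adjusted p = 0.133 to 0.347) and without DIV7 replicate 1 (0.0926 to 0.662).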

How the results depend on the processing

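From DIV3 to DIV7 the count of genes past the test was 1554; it was 2422 with no low-count filter, 1016 with only both days in the fit, 748 in thinned cells, 36 under the stricter cell filter, 838 in the Crym-led sub-cluster alone, and 103 to 2853 with 1 library left out. From DIV3 to DIV5 it was 154, against 249 by DESeq2, 838 with no filter, 10 with only both days, 7 under the stricter cell filter and 26 to 1359 with 1 library left out. From DIV5 to DIV7 it was 0, against 7 by DESeq2, 79 with no filter, 1 without cells with other markers and 0 to 7 with 1 library left out. From DIV1 to DIV3 it was 68, against 137 by DESeq2, 468 with no filter, 18 under the stricter cell filter, 109 without sub-clusters led by other types, 42 in the Crym-led sub-cluster and 20 to 464 with 1 library left out. For the difference from Prox1-positive neurons it was 12, against 5 by DESeq2, 315 with no filter, 140 in thinned cells, 21 without top doublet scores, 145 without cells with other markers, 76 without sub-clusters led by other types, 39 in the Crym-led sub-cluster and 3 to 80 with 1 library left out. The share against day had r = -0.549 without cells with other markers. The sub-cluster alternatives were chosen after seeing the data. The cause was not tested.

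Deviations by replicate number were weakly and positively related between days (correlations 0.279, 0.093 and 0.149), and the main fit took no account of the number. Fos, for instance, stood higher in replicate 2 than in replicate 1 at DIV3 (1043 and 168 CPM), DIV5 (1548 and 471) and DIV7 (1529 and 1016). What the replicate numbers share across days is not given in the labels and was not tested. With the replicate number as a block 2552 genes passed from DIV3 to DIV7, 657 from DIV3 to DIV5 and 1 from DIV5 to DIV7, and Mef2c was at 0.045.

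Among the genes named, directions turned only for those that had not passed. From DIV3 to DIV7, with 1 library left out, the change ranged from -0.061 to 1.09 for Grin2a, -0.20 to 0.55 for Dcx, -0.37 to 0.060 for Stmn2, -0.61 to 0.21 for Slc17a6, -1.12 to 0.91 for Mef2c and -0.0057 to 0.29 for Gap43. Under the stricter cell filter Gap43 was at -0.17 and Dcx at -0.15, and in thinned cells Dcx at -0.056. In the difference from Prox1-positive neurons, with 1 library left out, values ranged from -0.27 to 0.50 for Camk2a, -0.58 to 0.34 for Slc12a5 and -0.62 to 0.014 for Slc17a7. Camk2a was at -0.26 under the stricter cell filter and -0.43 in the Crym-led sub-cluster, Slc12a5 at 1.70 in thinned cells and 0.68 without cells with other markers, and Slc17a7 at 0.064 without those cells. The DIV7 libraries, with 133 and 45 members, limit the precision of every comparison with that day.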
